A study of Arabidopsis thaliana with 8 samples.

Results

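The genes described here encode the light-harvesting antenna of the plant photosystems, the subunits of the photosystem cores, and proteins named after a photosystem. They were chosen by description: a gene was taken when the name given to it in the deposited files contained photosystem, light-harvesting, light harvesting or chlorophyll a/b. The rule found 60 of the 27197 loci used on chromosomes 1 to 5. By symbol and description, 20 were antenna proteins (6 of photosystem I and 14 of photosystem II), 23 were core subunits (12 of photosystem I and 11 of photosystem II) and 17 were assembly factors, relatives and other proteins. All 60 are nuclear genes, and the reaction centre subunits encoded in the chloroplast were not analysed here.

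Each photosystem is a membrane complex of the chloroplast with a core, where light drives an electron transfer, and an antenna of chlorophyll a/b proteins that passes absorbed light energy to the core. Photosystem II splits water with the help of its oxygen-evolving proteins, and photosystem I reduces ferredoxin. The nuclear antenna genes are textbook examples of genes driven by light and by the circadian clock, with a peak of transcript early in the day. Young carpels, the organs that form the pistil, are green and hold chloroplasts in their walls.

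RNA was sequenced from carpels of floral stages 8 to 13, dissected by hand from 15 inflorescences of Arabidopsis thaliana, ecotype Columbia, grown on soil in long days. The nga group had 3 libraries, and its genotype label is nga 1/2/3/4, which names the 4 NGATHA genes. The 35S:NGA group had 3 libraries of an overexpression line, and its label does not say which NGATHA gene is driven by 35S, a viral promoter active in most plant tissues. The WT group had 2 libraries of wild type. The NGATHA proteins are transcription factors with a B3 domain, best known from the development of the style and stigma, and the design sets loss and gain of their function against wild type. The titles number the libraries and say nothing of separate plants, so p-values here cover a spread that could be technical.

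The lines were checked on the 4 NGATHA transcripts, in RPKM (reads per kilobase of gene, scaled to the mapped reads). NGA4 was at 0.131, 0.123 and 0.248 RPKM in the nga libraries, against 3.97 and 3.83 RPKM in WT, and fell by 2.07 ± 0.15 on the log2 scale (limma, adjusted p = 0.00117). NGA3 was at 2.56, 2.65 and 2.97 RPKM in nga, 102, 120 and 166 RPKM in 35S:NGA, and 5.47 and 4.81 RPKM in WT. NGA1, at 21.2, 23.7 and 25.6 RPKM in nga, 15.6, 21.4 and 12.9 RPKM in 35S:NGA, and 23.5 and 23.9 RPKM in WT, and NGA2, at 9.72, 7.73 and 14.9 RPKM, 8.88, 7.47 and 5.78 RPKM, and 9.50 and 8.15 RPKM in these groups, were not lower in nga. The labels give no alleles, and a level over the whole gene does not tell an intact transcript from a disrupted one. An estimated 23.1 M to 38.3 M reads were mapped per library. The 7 carpel and ovule markers, such as CRC, SHP1 and INO, were read in every library, with a summed level of 408 to 487 RPKM in nga, 386 to 460 RPKM in 35S:NGA and 378 to 383 RPKM in WT. The sum covered opposite differences in 35S:NGA against WT, where 6 markers were above 0 and CRC below, none of them called (limma). CRC was at 19.2, 13.6 and 7.39 RPKM in 35S:NGA and at 29.6 and 41.7 RPKM in WT. By the file headers nga 1, nga 2, WT 1 and WT 2 shared sequencing lane 6, 35S:NGA 1 and 35S:NGA 2 lane 7, and nga 3 and 35S:NGA 3 lane 8. No lane held both 35S:NGA and WT, so a model that includes lane ties these groups only through nga. It joins 35S:NGA 3 to nga 3 in lane 8, and nga 1 and nga 2 to WT in lane 6.

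Differences were tested by limma, on log2(RPKM + 1), for the 17786 genes that reached 1 RPKM in at least 2 libraries, with Benjamini-Hochberg adjustment. Called genes are those with an adjusted p under 0.05. Differences are on that log2 scale with their standard errors, which understates the change of genes at low RPKM. Of the 60 genes, 57 passed the filter. The core genes PSBP-2 and PSBX and AT4G37230, of the PsbO family by its description, did not, and were at 0.0960 to 0.891 RPKM, 0.0464 to 0.646 RPKM and 0.0753 to 0.512 RPKM over the 8 libraries. In whole carpels, fewer green cells and less transcript per green cell cannot be told apart.

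Antenna transcripts varied far more between libraries than core transcripts did. The ratio of the highest to the lowest of the 8 libraries had a median of 13.1 over the 14 photosystem II antenna genes and 3.31 over the 6 photosystem I antenna genes, against 2.26 and 2.38 over the tested core genes of photosystem II and photosystem I. It was 1.74 over the tested other members. LHB1B1, which encodes a chlorophyll a/b protein of the main antenna of photosystem II, spanned 155-fold, while LHCB4.1, a minor antenna protein next to the core, spanned 2.32-fold. The highest values came from 2 libraries. Of the 20 antenna genes, 11 were highest of all 8 libraries in 35S:NGA 3, 8 in nga 2 and 1 in WT 1.

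**Figure D1:**
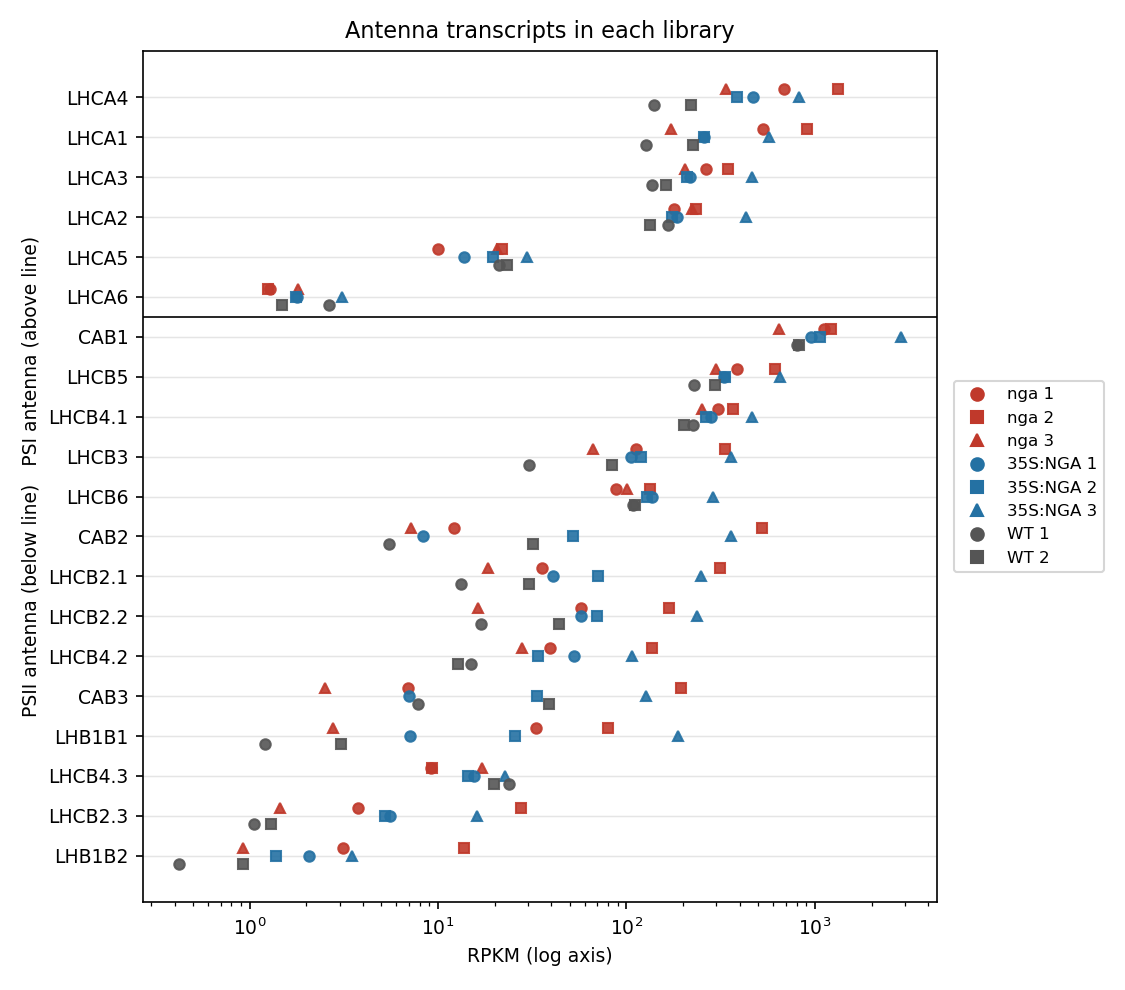
RPKM of the 20 antenna genes (log axis) in each of the 8 libraries, with nga in red, 35S:NGA in blue and WT in grey, and the marker giving the replicate. For most genes nga 2 and 35S:NGA 3 lie to the right of the other libraries, with CAB2 at 522 and 361 RPKM there.

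The summed level of the antenna genes followed the same libraries. It was 3881, 6985 and 2421 RPKM in nga, 3149, 3264 and 8272 RPKM in 35S:NGA, and 2075 and 2470 RPKM in WT. The summed core genes were at 2877, 3958 and 3248 RPKM in nga, at 3091, 2990 and 5484 RPKM in 35S:NGA, and at 3064 and 2825 RPKM in WT. For the antenna, nga 3 lay below WT 2, so nga and WT overlapped, while the 3 libraries of 35S:NGA were all above WT. The core sums overlapped between nga and WT, with nga 1 inside the range of WT.

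Of the 20 antenna genes, 1 was called in nga against WT, where 16.9% of all tested genes were called (9.26% rose and 7.65% fell). The median log2 difference of the antenna genes was 0.90, with 15 above 0 and 5 below, against a median of -0.00 over all tested genes. The core genes had a median of 0.05 and 1 call among the 21 tested, and the other members a median of 0.14 and no call, with 2 of them higher and 1 lower in limma where p was left unadjusted (p under 0.05), which 36.3% of all tested genes reached. A share of 1 in 20 is below the background of calls. Without nga 2 the antenna median was 0.38 and 0 antenna genes were called, with 2 higher and 1 lower before adjustment in limma, where 4.76% of all tested genes were called (2.52% rose and 2.23% fell).

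The called antenna gene was LHCA4 (AT3G47470, chromosome 3, 17493343 to 17495033 in TAIR10.1), which encodes a subunit of the belt of antenna proteins on photosystem I and pairs there with LHCA1. LHCA4 was at 686, 1331 and 339 RPKM in nga, at 469, 388 and 824 RPKM in 35S:NGA, and at 141 and 221 RPKM in WT. Each nga library was above both WT libraries. LHCA4 rose by 1.93 ± 0.55 in nga against WT (limma, adjusted p = 0.0483), a 3.82-fold change. The difference kept its direction in all 20 alternative settings, at 1.45 to 2.43, and the call was kept in 6 of them, with adjusted p of 0.00864 to 0.221. Of these 6, the fits within lane 6, without the lane 8 libraries, with lane in the model and without nga 3 share the same difference of 2.43. The call was lost when any library except nga 3 was left out, with values of 1.92 without nga 1, 1.45 without nga 2, 1.61 without WT 1 and 2.26 without WT 2, and 1.93 without each of the 35S:NGA libraries.

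The promoter of LHCA4, shown because it belongs to the called antenna gene, held matches to 4 of the 8 short sequences searched, of which 3 are marked here and the fourth was AAAAATCT. The sequence is TAIR10.1 from RefSeq, 250 bases before to 50 bases after the annotated start, on the minus strand at chr3:17494984-17495283. Capitals mark CACGTG (the G-box, a site of light-regulated bZIP and bHLH factors), GATAAG, to which GATA factors bind, and CCAATC, reported as a site of the GLK factors, on either strand.
LHCA4: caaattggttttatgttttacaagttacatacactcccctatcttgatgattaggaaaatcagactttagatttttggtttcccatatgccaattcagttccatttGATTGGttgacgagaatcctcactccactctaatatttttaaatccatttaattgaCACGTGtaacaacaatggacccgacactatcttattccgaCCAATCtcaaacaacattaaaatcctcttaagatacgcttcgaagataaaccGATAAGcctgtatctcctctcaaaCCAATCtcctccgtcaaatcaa
CACGTG began 88 bases before the start, and CCAATC stood at 3 places, 144 and 48 bases before the start and at base 29 after it.

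The other photosystem I antenna genes were not called in nga against WT. LHCA1, the partner of LHCA4, was at 532, 911 and 173 RPKM in nga, at 259, 257 and 571 RPKM in 35S:NGA, and at 127 and 226 RPKM in WT, with a difference of 1.37 ± 0.67 in nga against WT (limma, adjusted p = 0.175). LHCA3, another belt subunit, was at 264, 348 and 204 RPKM in nga, against 137 and 163 RPKM in WT, without overlap, and differed by 0.82 ± 0.37 (limma, adjusted p = 0.143). LHCA2 was at 178 to 233 RPKM in nga, 174 to 429 RPKM in 35S:NGA and 133 to 165 RPKM in WT. The belt genes thus had no nga library below the lowest WT library. The scarce members did not share this: LHCA5, found with photosystem I in small amounts, was at 9.96 to 21.9 RPKM in nga, 13.8 to 29.6 RPKM in 35S:NGA and 21.0 to 23.1 RPKM in WT, and LHCA6 was at 1.25 to 1.81 RPKM in nga, 1.77 to 3.08 RPKM in 35S:NGA and 1.49 to 2.62 RPKM in WT.

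The main antenna of photosystem II is built from LHCB1, LHCB2 and LHCB3 proteins. LHCB1 has 5 genes, of which CAB1, CAB2 and CAB3 lie side by side on chromosome 1 and LHB1B1 and LHB1B2 on chromosome 2. The coding sequences of CAB1, CAB2 and CAB3 are nearly the same: CAB1 and CAB2 were 96.1% identical, CAB1 and CAB3 96.4%, and CAB2 and CAB3 95.7%, with 47 of 804 positions differing among them. A stretch of bases 145 to 264 of each coding sequence (TAIR10.1 from RefSeq, genes at chr1:10477885-10479114 on the plus strand, chr1:10474656-10475969 and chr1:10472280-10473502 on the minus strand) is shown to make visible where the copies can be told apart. Capitals mark the 11 positions at which the copies differ.
CAB1: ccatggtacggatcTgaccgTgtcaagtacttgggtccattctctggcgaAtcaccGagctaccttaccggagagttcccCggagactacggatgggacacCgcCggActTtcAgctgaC
CAB2: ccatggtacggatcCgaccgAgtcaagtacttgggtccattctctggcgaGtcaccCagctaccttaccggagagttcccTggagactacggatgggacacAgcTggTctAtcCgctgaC
CAB3: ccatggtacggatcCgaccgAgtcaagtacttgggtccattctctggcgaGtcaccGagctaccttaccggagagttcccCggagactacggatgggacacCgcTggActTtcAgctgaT
Of the 50-base windows in their transcripts, 22.0% in CAB1, 20.5% in CAB2 and 10.6% in CAB3 also occurred in another locus, so the split of reads among them is uncertain.

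CAB1 carried most of the LHCB1 signal. It was at 1116, 1223 and 646 RPKM in nga, at 953, 1062 and 2876 RPKM in 35S:NGA, and at 805 and 828 RPKM in WT. CAB2 was at 12.2, 522 and 7.20 RPKM in nga, at 8.28, 52.2 and 361 RPKM in 35S:NGA, and at 5.48 and 31.8 RPKM in WT. CAB3 was at 6.89, 195 and 2.50 RPKM in nga, at 7.00, 33.7 and 127 RPKM in 35S:NGA, and at 7.81 and 38.6 RPKM in WT. A single library, nga 2, held nearly all of the CAB2 and CAB3 signal of its group, and WT 1 and WT 2 themselves lay several-fold apart. The difference for CAB2 in nga against WT was 1.40 ± 1.99 (limma, adjusted p = 0.636), and it was -0.49 without nga 2. CAB2 stood at 0.427 of the level of CAB1 in nga 2, against 0.0109 and 0.0111 in nga 1 and nga 3, and at 0.125 in 35S:NGA 3. The sum of the 3 genes, which depends less on how reads were split among them, was 1135, 1940 and 656 RPKM in nga, 968, 1148 and 3364 RPKM in 35S:NGA, and 818 and 899 RPKM in WT. CAB2 and CAB3 also shared windows with LHB1B1, and CAB1 with an overlapping neighbour. How shared reads were counted is not known, so the sum is uncertain too.

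LHB1B1 had the largest difference of all members when either line was set against WT. It was at 33.1, 79.4 and 2.75 RPKM in nga, at 7.08, 25.7 and 187 RPKM in 35S:NGA, and at 1.21 and 3.05 RPKM in WT. The lowest nga library overlapped WT, and the lowest 35S:NGA library did not. The difference was 2.86 ± 1.48 in nga (limma, adjusted p = 0.198) and 3.52 ± 1.48 in 35S:NGA (limma, adjusted p = 0.235). LHB1B2 was at 0.921 to 13.8 RPKM in nga, 1.39 to 3.47 RPKM in 35S:NGA and 0.423 to 0.924 RPKM in WT, and differed by 1.57 ± 0.72 in nga against WT (limma, adjusted p = 0.157). All of its 50-base windows also occurred in another annotated locus, so its level is uncertain.

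The LHCB2 genes encode the antenna proteins that are phosphorylated when the antenna moves between the photosystems. LHCB2.1 was at 35.6, 314 and 18.5 RPKM in nga, at 40.9, 70.8 and 247 RPKM in 35S:NGA, and at 13.3 and 30.4 RPKM in WT. LHCB2.2, which shared 28.2% of its windows with LHCB2.1, was at 57.1, 168 and 16.4 RPKM in nga, at 57.2, 69.4 and 237 RPKM in 35S:NGA, and at 16.9 and 43.6 RPKM in WT. In both genes nga 3 lay within or next to the range of WT, and nga 2 was the highest of its group. LHCB2.3 was at 1.45 to 27.6 RPKM in nga, 5.24 to 16.1 RPKM in 35S:NGA and 1.05 to 1.30 RPKM in WT. LHCB3, a subunit of the trimers that link to the core, was at 113, 333 and 66.3 RPKM in nga, at 106, 119 and 358 RPKM in 35S:NGA, and at 30.4 and 84.0 RPKM in WT.

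The minor antenna proteins LHCB4 (CP29), LHCB5 (CP26) and LHCB6 (CP24) sit between the core and the trimers. LHCB5 was at 386, 616 and 300 RPKM in nga, at 331, 332 and 650 RPKM in 35S:NGA, and at 228 and 295 RPKM in WT. LHCB6 was at 87.9, 134 and 101 RPKM in nga, at 137, 129 and 289 RPKM in 35S:NGA, and at 108 and 111 RPKM in WT. LHCB5 had no overlap between nga and WT, whereas LHCB6 did overlap. The 3 LHCB4 genes differed from each other. LHCB4.1, the main copy, was at 307, 367 and 251 RPKM in nga, at 280, 264 and 467 RPKM in 35S:NGA, and at 226 and 202 RPKM in WT.

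LHCB4.2 and LHCB4.3 lay on opposite sides of WT. LHCB4.2 was at 39.5, 136 and 27.8 RPKM in nga, at 52.8, 34.0 and 108 RPKM in 35S:NGA, and at 14.9 and 12.7 RPKM in WT. LHCB4.3, an isoform that diverges in sequence from the other copies and was 65.7% identical to LHCB4.1 in coding sequence, was at 9.17, 9.28 and 17.1 RPKM in nga, at 15.5, 14.4 and 22.7 RPKM in 35S:NGA, and at 23.7 and 19.7 RPKM in WT. In neither gene did nga overlap WT. The differences in nga against WT were 1.88 ± 0.66 for LHCB4.2 (limma, adjusted p = 0.0843) and -0.87 ± 0.29 for LHCB4.3 (limma, adjusted p = 0.0696), neither of which was called. As a ratio to LHCB4.1, LHCB4.3 was at 0.0299, 0.0253 and 0.0679 in nga, at 0.0553, 0.0544 and 0.0486 in 35S:NGA, and at 0.105 and 0.0980 in WT.

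The promoters of these copies are shown because the genes encode the same minor antenna protein and stood on opposite sides of WT. Both are TAIR10.1 sequences from RefSeq on the plus strand, at chr3:2717307-2717606 for LHCB4.2 and chr2:16745378-16745677 for LHCB4.3, with the same marks as for LHCA4.
LHCB4.2: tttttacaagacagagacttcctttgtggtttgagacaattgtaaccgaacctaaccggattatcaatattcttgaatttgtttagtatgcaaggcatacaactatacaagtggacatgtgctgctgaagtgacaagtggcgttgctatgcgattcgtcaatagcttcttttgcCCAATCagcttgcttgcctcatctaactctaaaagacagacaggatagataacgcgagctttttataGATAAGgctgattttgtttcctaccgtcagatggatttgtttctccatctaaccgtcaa
LHCB4.3: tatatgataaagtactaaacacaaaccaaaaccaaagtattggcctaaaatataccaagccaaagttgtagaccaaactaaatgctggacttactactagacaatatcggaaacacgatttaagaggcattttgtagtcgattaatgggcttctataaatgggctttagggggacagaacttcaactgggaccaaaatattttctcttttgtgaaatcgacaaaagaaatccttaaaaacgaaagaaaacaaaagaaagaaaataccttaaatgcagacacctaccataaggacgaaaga
LHCB4.2 held 1 GATAAG and 1 CCAATC, and LHCB4.3 held none of the marked sequences.

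In the core of photosystem I the called gene was PSAH2 (AT1G52230, chromosome 1, 19454798 to 19455668), 1 of 2 genes for subunit H, at which the mobile antenna docks. PSAH2 was at 44.1, 44.9 and 45.7 RPKM in nga, at 54.7, 79.0 and 98.4 RPKM in 35S:NGA, and at 78.7 and 92.3 RPKM in WT. The nga libraries lay close together and below WT, and 35S:NGA overlapped WT. PSAH2 fell by 0.91 ± 0.22 in nga against WT (limma, adjusted p = 0.0334), a 1.88-fold change. The difference was -0.80 to -1.02 over 20 alternatives, with adjusted p of 0.0106 to 0.237, and was called in 14 of them. The call was lost without nga 1 (-0.90, adjusted p = 0.0856), nga 2 (-0.91, adjusted p = 0.0795), WT 1 (-1.02, adjusted p = 0.111) or WT 2 (-0.80, adjusted p = 0.237) in limma.

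The other copy for subunit H did not fall. PSAH-1 was at 209, 253 and 183 RPKM in nga, at 189, 167 and 255 RPKM in 35S:NGA, and at 168 and 160 RPKM in WT, with a difference of 0.38 ± 0.21 in nga against WT (limma, adjusted p = 0.231). The ratio of PSAH2 to PSAH-1 was 0.211, 0.178 and 0.250 in nga, 0.289, 0.472 and 0.385 in 35S:NGA, and 0.468 and 0.577 in WT, so that every nga library was below every other library. The ratios were not tested. Of the 50-base windows, 19.1% in PSAH2 and 49.2% in PSAH-1 also occurred in an overlapping neighbour, so neighbouring transcripts could add to both levels. The promoter of PSAH2, at chr1:19454548-19454847 on the plus strand (TAIR10.1 from RefSeq), is shown because this was the called core gene, and carried 2 copies of CACGTG, at 67 and 12 bases before the start, and 1 match to GATAAG on the other strand.
PSAH2: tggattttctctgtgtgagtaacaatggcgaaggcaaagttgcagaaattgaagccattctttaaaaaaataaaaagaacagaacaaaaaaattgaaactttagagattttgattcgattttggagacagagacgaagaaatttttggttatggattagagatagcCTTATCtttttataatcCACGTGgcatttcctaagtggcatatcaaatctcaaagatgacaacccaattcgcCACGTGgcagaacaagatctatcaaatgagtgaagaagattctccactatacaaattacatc

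Subunit E, on the stromal face where ferredoxin docks, also has 2 genes. PSAE-2 was at 120, 162 and 128 RPKM in nga, at 131, 104 and 175 RPKM in 35S:NGA, and at 87.6 and 71.7 RPKM in WT. PSAE-1 was at 87.2, 100 and 111 RPKM in nga, at 111, 117 and 229 RPKM in 35S:NGA, and at 110 and 107 RPKM in WT. PSAE-2 was above PSAE-1 in all nga libraries and below it in both WT libraries. The ratio of PSAE-2 to PSAE-1 was 1.38, 1.62 and 1.15 in nga, 1.17, 0.895 and 0.765 in 35S:NGA, and 0.797 and 0.673 in WT. PSAE-2 differed by 0.77 ± 0.23 in nga against WT and was not called (limma, adjusted p = 0.0560), and it was called in 6 of 20 alternatives, among them without 35S:NGA 2 (adjusted p = 0.0494) and without 35S:NGA 3 (adjusted p = 0.0380).

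**Figure D2:**
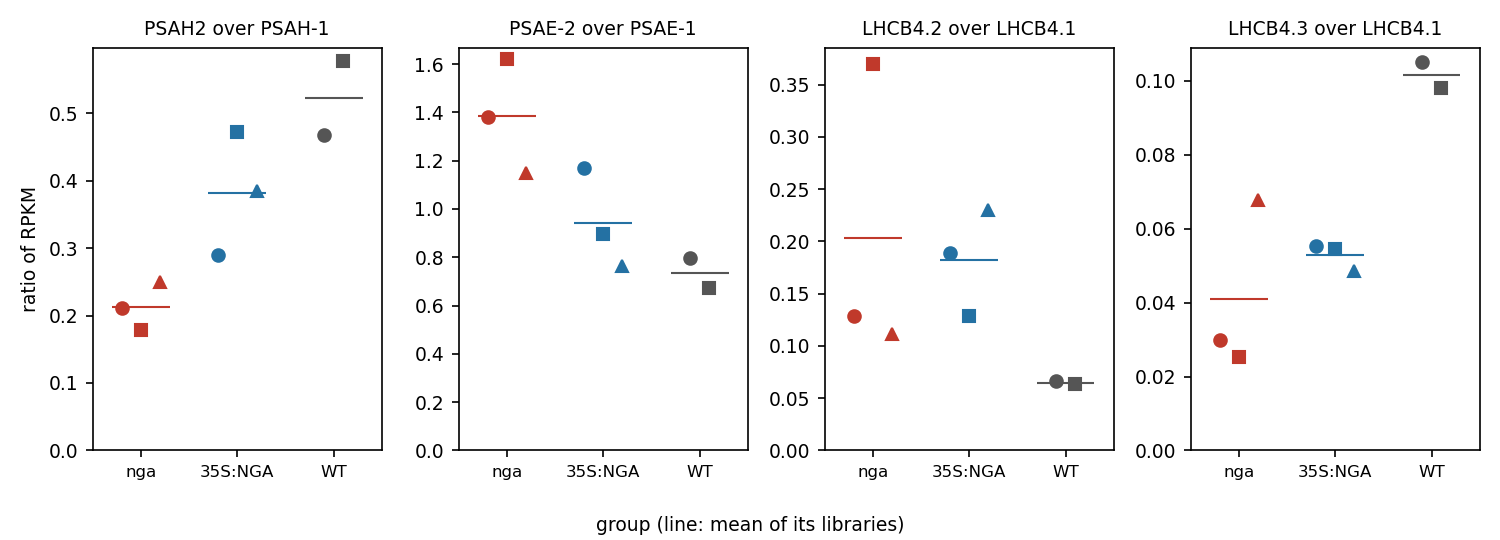
Ratio of RPKM between copies of a subunit's gene in each library (points; the marker gives the replicate) with the mean of each group (lines). The PSAH2 to PSAH-1 ratio is 0.178 to 0.250 in nga and 0.468 to 0.577 in WT, while LHCB4.3 to LHCB4.1 is at most 0.0679 in nga and at least 0.0980 in WT.

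The abundant single-copy core genes of photosystem I hardly differed between nga and WT. PSAF, which helps plastocyanin to dock, was at 290, 366 and 273 RPKM in nga, at 279, 291 and 521 RPKM in 35S:NGA, and at 294 and 301 RPKM in WT. PSAL was at 234 to 326 RPKM in nga, 321 to 544 RPKM in 35S:NGA and 280 to 295 RPKM in WT. PSAO was at 196 to 256 RPKM, 210 to 439 RPKM and 242 to 255 RPKM in the same groups, and PSAK at 122 to 177 RPKM, 154 to 318 RPKM and 157 to 174 RPKM. In these 4 genes WT lay inside the range of nga, and the highest 35S:NGA value was always 35S:NGA 3. PSAN, a lumenal subunit, instead followed nga 2, at 37.4, 151 and 61.8 RPKM in nga, 42.5, 26.8 and 110 RPKM in 35S:NGA, and 29.9 and 27.1 RPKM in WT.

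In the core of photosystem II no gene was called in nga against WT, and limma gave 1 of 9 tested genes higher and 0 lower before adjustment, against 16.9% called and 36.3% before adjustment over all tested genes. That gene was PSBR, a small subunit near the oxygen-evolving proteins, at 486, 779 and 528 RPKM in nga, at 436, 402 and 773 RPKM in 35S:NGA, and at 359 and 287 RPKM in WT, with a difference of 0.86 ± 0.32 (limma, adjusted p = 0.0977). The oxygen-evolving proteins overlapped between nga and WT. PSBP-1 was at 344 to 520 RPKM in nga, 326 to 702 RPKM in 35S:NGA and 369 to 379 RPKM in WT, and PSBQ-2 at 201 to 229 RPKM, 224 to 308 RPKM and 189 to 211 RPKM. PSBQA was at 140 to 224 RPKM in nga, 155 to 244 RPKM in 35S:NGA and 174 to 244 RPKM in WT. The small subunits PSBW, at 161 to 199 RPKM, 149 to 318 RPKM and 141 to 165 RPKM, and PSBY, at 75.5 to 104 RPKM, 76.4 to 159 RPKM and 71.4 to 73.4 RPKM, were not called either, and PSBY alone of them had no overlap between nga and WT.

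Among the assembly factors and relatives, PSB28 had the most negative difference of all members in nga against WT. PSB28, a factor bound to assembling photosystem II, was at 8.86, 10.3 and 20.6 RPKM in nga, at 12.1, 14.8 and 23.2 RPKM in 35S:NGA, and at 24.4 and 25.4 RPKM in WT. All libraries of both lines were below WT. The difference was -0.95 ± 0.36 in nga (limma, adjusted p = 0.0989) and -0.60 ± 0.36 in 35S:NGA (limma, adjusted p = 0.371). PSB27, which binds photosystem II during assembly and repair, was at 138, 230 and 109 RPKM in nga, against 80.9 and 72.9 RPKM in WT, and differed by 0.97 ± 0.34 (limma, adjusted p = 0.0846). LPA19, a PSB27 relative, was at 3.93, 4.31 and 5.31 RPKM in nga, against 3.15 and 2.51 RPKM in WT, with a difference of 0.52 ± 0.16 (limma, adjusted p = 0.0581). PSB29 (THF1), a thylakoid protein, was at 84.4 to 122 RPKM in nga, 92.6 to 149 RPKM in 35S:NGA and 130 to 133 RPKM in WT.

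Within lane 6 the libraries nga 1 and nga 2 could be set against WT 1 and WT 2. There 8 of the 20 antenna genes rose and 1 fell, where 32.4% of all tested genes were called, with 15.9% rising and 16.5% falling (limma, 2 libraries in each group). The genes that rose were LHB1B1 (4.13, adjusted p = 0.00948), LHCA4 (2.43, adjusted p = 0.0134), LHCB4.2 (2.33, adjusted p = 0.0346), LHB1B2, LHCA1, LHCA3, LHCB4.1 and CAB1, and LHCB4.3 fell (-1.15, adjusted p = 0.00977). Of these, LHB1B2 reached 1 RPKM in this lane only in the nga libraries, so it passed the filter through them and had to differ. Among 20 tested core genes PSAE-2 (0.81), PSAH-1 (0.48) and PSBR (0.94) rose and PSAH2 fell (-0.92, adjusted p = 0.0106), and PSB27 (1.20) rose while PSB28 (-1.30) and PSB29 (-0.61) fell. The antenna median was 1.44 within lane 6 and the core median 0.10, against -0.02 over all tested genes. Of the 2 nga libraries of this lane, nga 2 stood apart in its clock genes (CCA1 at 132 RPKM and LHY at 115 RPKM, against 0.875 and 0.604 RPKM in nga 1). Without the lane 8 libraries 9 antenna genes rose and 1 fell, where 34.3% of all tested genes were called (16.3% rose and 18.0% fell). With the lane as a term the antenna counts were 9 and 1, where 33.8% were called (16.0% rose and 17.8% fell). With nga 3 as the only library left out, 5 antenna genes rose and 1 fell (limma), where 29.0% of all tested genes were called (13.7% rose and 15.3% fell). All of these fits, like that within lane 6, set nga 1 and nga 2 against WT 1 and WT 2. Their log2 differences were therefore the same, at 2.43 for LHCA4 and -1.15 for LHCB4.3, and only the estimate of the spread and the genes tested changed.

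**Figure D3:**
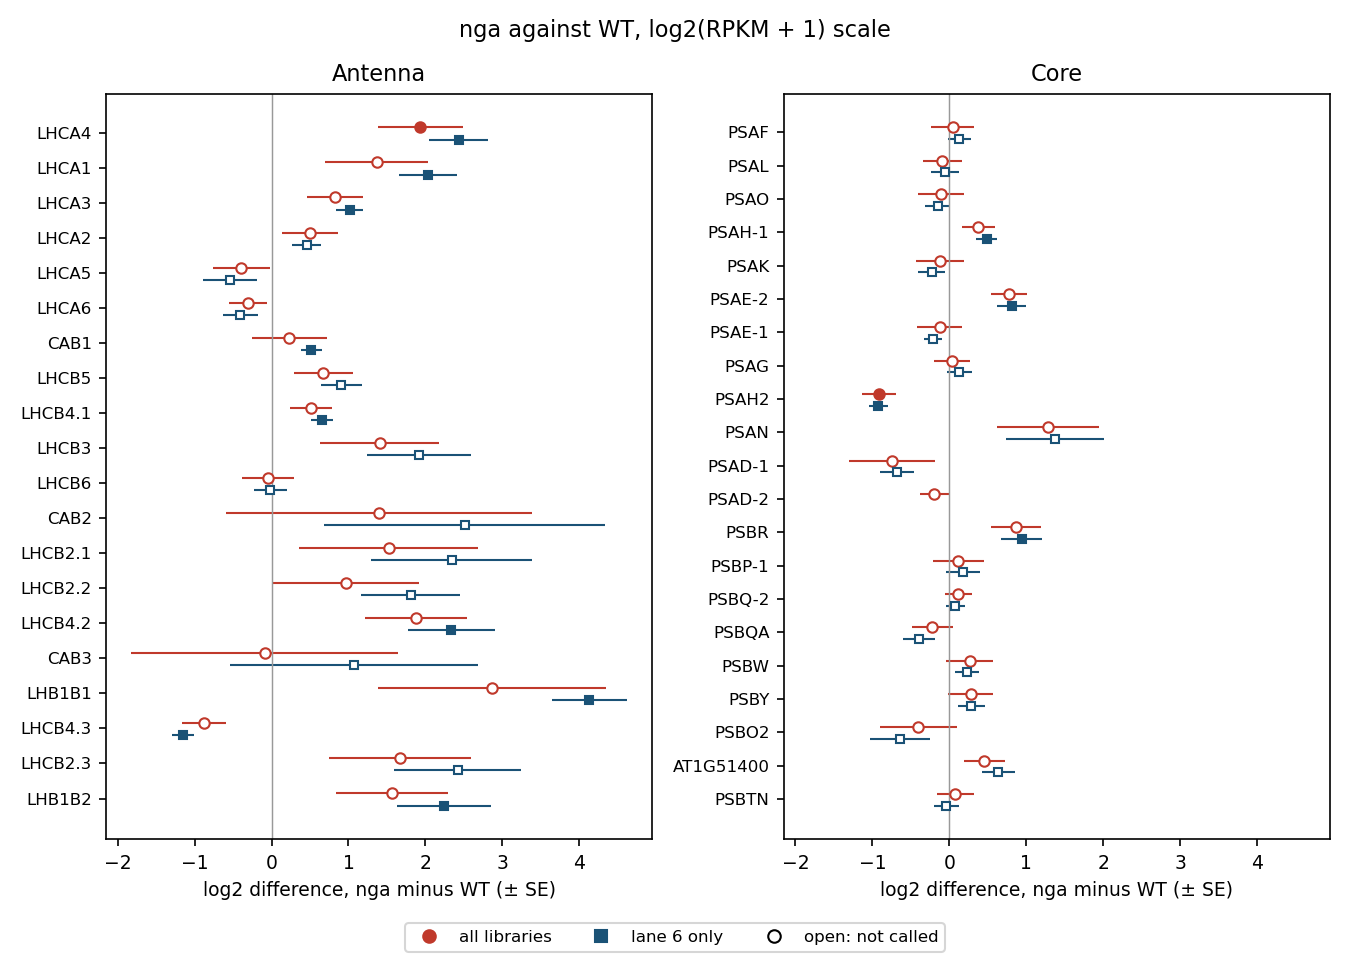
Log2 difference of nga minus WT with its standard error for the tested antenna and core genes, in all libraries (circles) and within lane 6 (squares), with filled markers for called genes. LHCA4 and PSAH2 are the filled circles, at 1.93 and -0.91, and most antenna genes lie right of 0 while the core genes scatter about it.

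Counted by overlap, 7 of 20 antenna genes had every nga library above WT and 1 had every one below, where 29.4% of all tested genes lay above and 27.7% below. The 7 were LHCA2, LHCA3, LHCA4, LHCB2.3, LHCB4.1, LHCB4.2 and LHCB5. Among the 21 tested core genes 5 lay above (PSAE-2, PSAH-1, PSAN, PSBR and PSBY) and 3 below (PSAD-1, PSAD-2 and PSAH2). The antenna share above WT was near the background, and the shares of antenna and core genes below WT were under it.

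In 35S:NGA against WT the antenna genes stood higher without a call. None of the 57 tested members was called, where 0.152% of all tested genes were called (0.0843% rose and 0.0675% fell). Before adjustment limma gave 6 members higher and 1 lower at p under 0.05, which 20.4% of all tested genes reached. The antenna median was 0.92, with 18 of 20 above 0, and the core median 0.30. In 15 of 20 antenna genes and 7 of 21 core genes all 35S:NGA libraries were above both WT libraries, where 23.3% of all tested genes were above. One of these core genes, PSAD-2, passed the filter only through 35S:NGA and so had to differ. It was also among the 6 members higher before adjustment. The differences were 1.58 ± 0.55 for LHCA4 (limma, adjusted p = 0.186), 0.89 ± 0.37 for LHCA3 (limma, adjusted p = 0.228), 1.99 ± 0.66 for LHCB4.2 (limma, adjusted p = 0.173) and 0.81 ± 0.49 for CAB1 (limma, adjusted p = 0.375). PSAH2 differed by -0.18 ± 0.22 (limma, adjusted p = 0.675) and PSAE-2 by 0.75 ± 0.23 (limma, adjusted p = 0.161). With the lane as a term the antenna median was 3.59 and the core median 0.96, and CAB1 rose by 2.67 (limma, adjusted p = 0.0434), where 0.0787% of all tested genes were called (0.0394% in each direction). As no lane held both groups, these lane-term differences add 35S:NGA 3 minus nga 3 in lane 8 to nga 1 and nga 2 minus WT in lane 6. For CAB1 these parts were 2.15 and 0.52. The libraries 35S:NGA 1 and 35S:NGA 2 do not enter these differences, and 35S:NGA 3 and nga 2 had the highest summed antenna levels. The differences from WT share the WT libraries with those of nga.

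A single library, 35S:NGA 3, was the highest of its group in 20 of 20 antenna genes and 23 of 23 core genes, PSBP-2 and PSBX included. Set against the mean of WT, the median log2 difference of the photosystem II antenna genes was 0.64, 1.06 and 2.79 in 35S:NGA 1, 35S:NGA 2 and 35S:NGA 3, and that of the photosystem I core genes 0.09, 0.02 and 0.87. In 35S:NGA 3 core and antenna stood high together, and so did other photosynthetic lists, with medians of 0.91 for chlorophyll synthesis, 0.66 for the Calvin cycle and 0.59 for electron transport, each the highest of the 8 libraries. In nga 2 the photosystem II antenna genes had a median of 2.93, while the photosystem I and photosystem II core genes had medians of 0.01 and 0.38. Without 35S:NGA 3 the antenna median in 35S:NGA against WT was 0.56 and the core median 0.05. In lane 8, which gives 1 library of each line and no replicate check, 35S:NGA 3 lay above nga 3 in 20 of 20 antenna genes and 21 of 21 core genes, with medians of 1.61 and 0.84, against -0.05 over all tested genes.

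**Figure D4:**
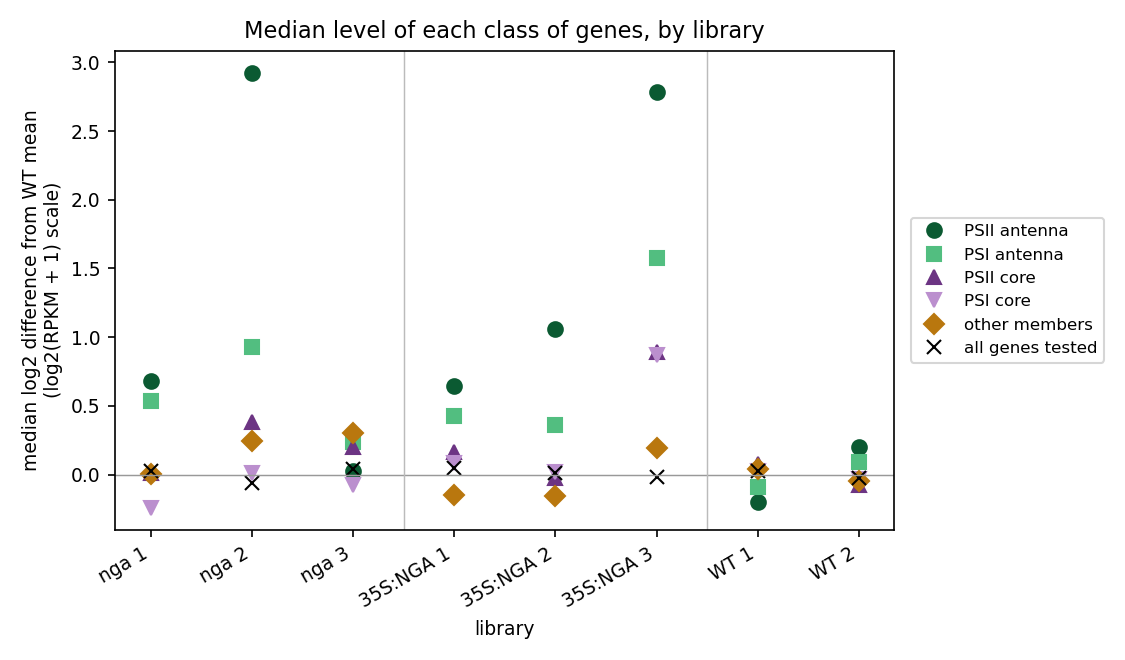
Median log2 difference from the mean of WT (log2(RPKM + 1) scale) for each class of genes in each library. The photosystem II antenna reaches 2.93 in nga 2 and 2.79 in 35S:NGA 3, the core classes reach 0.87 and 0.90 in 35S:NGA 3 and at most 0.38 in nga 2, and all tested genes stay within 0.06 of 0.

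Of 57 tested members, 0 were called in 35S:NGA against nga, where 5.34% of all tested genes were called (3.72% rose and 1.62% fell). Before adjustment limma gave 3 members higher and 1 lower at p under 0.05, which 24.7% of all tested genes reached. The antenna median was 0.32 and the core median 0.21. The antenna median was -0.71 without the lane 8 libraries, so its direction depended on them, and it was -0.19 without 35S:NGA 3 and -0.23 without nga 3. No antenna gene was free of overlap between the lines. The core genes PSAE-1 and PSAH2 had every 35S:NGA library above every nga library, where 13.6% of all tested genes did, and so did PSAD-2, which passed the filter only through 35S:NGA. PSAD-2 was also among the 3 members higher before adjustment.

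Subunit D of photosystem I, which binds ferredoxin, gave the largest positive difference. PSAD-1 was at 18.5, 12.1 and 61.4 RPKM in 35S:NGA, at 12.4, 8.69 and 8.95 RPKM in nga, with WT at 15.1 and 19.8 RPKM. It differed by 1.21 ± 0.50 in 35S:NGA against nga (limma, adjusted p = 0.185), with 35S:NGA 3 far above the rest. Its scarce partner PSAD-2 was at 1.16, 0.725 and 1.33 RPKM in 35S:NGA and at 0.255, 0.293 and 0.207 RPKM in nga, a difference of 0.72 ± 0.17 (limma, adjusted p = 0.0507). As PSAD-2 passed the filter only through 35S:NGA, it had to differ. PSAH2 differed by 0.73 ± 0.20 (limma, adjusted p = 0.0749) and LHCB6 by 0.70 ± 0.30 (limma, adjusted p = 0.204). LHB1B2 had the most negative difference, at -0.61 ± 0.65 (limma, adjusted p = 0.595), and it was 0.18 without nga 2.

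Genes of the clock were read beside the antenna. The library nga 2 had CCA1 and LHY, morning transcription factors of the clock, at 132 and 115 RPKM, against 0.460 to 2.86 RPKM for CCA1 and 0.482 to 1.19 RPKM for LHY in the other libraries. PRR9, a morning repressor, had 54.0 RPKM in nga 2, against 0.0757 to 2.97 RPKM in the rest, while GRP7, an RNA-binding protein under clock control, had 444 RPKM in nga 2, against 3924 to 7023 RPKM in the rest. In 35S:NGA 3 CCA1 was at 2.17 RPKM and GRP7 at 5351 RPKM, within the range of the other libraries. Of the 2 libraries with the highest antenna levels, only nga 2 stood far from the rest in CCA1, LHY, PRR9 and GRP7. GI, TOC1, ELF3, ELF4 and LUX were lowest of their group in 35S:NGA 3, with TOC1 at 64.5 RPKM, against 130 and 83.7 RPKM. PRR5, PRR7 and RVE8 were not lowest there, and all of these genes were within the range of the other libraries. The part of the clock genes in the antenna levels was not tested. None of the 12 clock genes was called in any of the 3 comparisons over all libraries (limma, 0 before adjustment in each), nor any of the 9 tested within lane 6 (limma, 1 higher before adjustment, PRR7). CCA1, LHY and PRR9 were not among these 9, as in lane 6 only nga 2 reached 1 RPKM for them, so they could not be called there.

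The rest of the photosynthetic pathway was read from lists outside the 60 genes. Of 13 tested chlorophyll synthesis genes 1 rose in nga against WT, with a list median of -0.10. This was HEMA1, for glutamyl-tRNA reductase at the entry of the pathway, at 101, 122 and 89.5 RPKM in nga, against 57.7 and 46.7 RPKM in WT, a difference of 0.98 ± 0.22 (limma, adjusted p = 0.0269). None of the 15 Calvin cycle genes was called (limma, 1 higher and 3 lower before adjustment), with a median of -0.31, and none of 10 electron transport and ATP synthase genes (1 higher and 1 lower), with a median of 0.20. None of 7 chlorophyll breakdown genes was called either (1 higher and 1 lower). Over all tested genes 16.9% were called. Within lane 6, where 15.9% of all tested genes rose and 16.5% fell, 5 of 12 chlorophyll synthesis genes rose and 3 fell, 1 of 15 Calvin cycle genes rose and 5 fell, and 2 of 10 electron transport genes fell (limma). Of the 5, PORA reached 1 RPKM in this lane only in the nga libraries, so it had to differ. Within lane 6, 3 of 14 regulators of photosynthetic genes rose and 2 fell, 1 of 9 photoprotection genes rose and 1 fell, and 0 of 7 chlorophyll breakdown genes were called (1 higher and 1 lower before adjustment). Of 9 photoprotection genes 1 fell. This was ELIP1, an early light-induced protein related to the antenna, at 9.28, 7.56 and 8.33 RPKM in nga, against 14.6 and 15.5 RPKM in WT, a difference of -0.78 ± 0.16 (limma, adjusted p = 0.0224). HEMA1 and ELIP1 were called in 15 of 20 alternatives each, and both calls were lost without nga 1 (0.99 and -0.85), nga 2 (0.86 and -0.71), WT 1 (1.13 and -0.82) or WT 2 (0.83 and -0.74).

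Of 14 regulators of photosynthetic genes 2 rose and 1 fell in nga against WT, with a median of 0.65, where 9.26% of all tested genes rose and 7.65% fell. PIF3, a bHLH factor that acts against greening in the dark, rose by 0.66 ± 0.17 (limma, adjusted p = 0.0391), and SIG1, a sigma factor of the chloroplast polymerase, rose by 0.78 ± 0.21 (limma, adjusted p = 0.0428). GUN1, a chloroplast protein of signalling to the nucleus, fell by 0.50 ± 0.13 (limma, adjusted p = 0.0396). These calls were kept in 11, 9 and 13 of 20 alternatives, and all were lost without nga 1, nga 2, WT 1 or WT 2, with PIF3 at 0.59 to 0.72, SIG1 at 0.63 to 0.87 and GUN1 at -0.57 to -0.43. PIF3 and SIG1 were also lost without 35S:NGA 1 (0.66 and 0.78), and GUN1 without 35S:NGA 2 (-0.50). The GLK factors, known activators of antenna genes, were not called. GLK1 was at 2.84, 7.60 and 7.06 RPKM in nga, at 4.09, 6.76 and 7.28 RPKM in 35S:NGA, and at 8.78 and 6.91 RPKM in WT, and GLK2 at 3.04, 9.19 and 6.04 RPKM in nga, 3.27, 3.66 and 7.71 RPKM in 35S:NGA, and 3.11 and 2.63 RPKM in WT.

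In 35S:NGA against WT no gene of the pathway lists was called, where 0.152% of all tested genes were called. Before adjustment limma gave 2 higher and 1 lower in chlorophyll synthesis, 1 and 1 in chlorophyll breakdown, 1 and 1 among the regulators, and 0 in the others. Of all tested genes, 20.4% reached p under 0.05 before adjustment. In 35S:NGA against nga 1 of 14 regulators fell and 1 of 9 photoprotection genes rose, where 3.72% of all tested genes rose and 1.62% fell. CGA1, a GATA factor that promotes greening, was at 0.0995, 0.331 and 0.222 RPKM in 35S:NGA, at 1.47, 1.80 and 2.21 RPKM in nga, with WT at 0.975 and 0.673 RPKM. It lay lowest in 35S:NGA with no overlap and fell by 1.21 ± 0.17 (limma, adjusted p = 0.00739), and as it passed the filter only through nga it had to differ. Its call was kept in 16 of 18 alternatives and lost in the model that includes lane and without both nga 2 and 35S:NGA 3, with limma giving -2.66 to -0.39 and an adjusted p of 0.00383 to 0.102 over the alternatives. ELIP1 rose by 0.72 ± 0.14 (limma, adjusted p = 0.0284), and its call was lost without any library but 35S:NGA 1 and nga 3, at 0.64 to 0.79.

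Markers of other floral tissues were read in the same libraries. The summed mature pollen markers were at 151, 84.1 and 99.4 RPKM in nga, at 66.5, 183 and 269 RPKM in 35S:NGA, and at 29.9 and 65.8 RPKM in WT, with AGP11 at 0 in 6 libraries and at most 0.0491 RPKM in the others. The tapetum markers summed to 30.1 to 41.1 RPKM in nga, 23.0 to 27.9 RPKM in 35S:NGA and 14.9 to 36.6 RPKM in WT, and the sepal and petal markers to 16.3 to 22.0 RPKM, 15.7 to 20.6 RPKM and 20.1 to 21.0 RPKM. Of the pollen markers 0 of 8 tested genes were called in each comparison (limma; before adjustment 2 were higher for nga and 5 for 35S:NGA over WT, and 0 between the lines). Of the 8 tapetum markers, 3 were tested. LAP6 and TKPR1 rose in nga against WT (limma, adjusted p = 0.0338 and 0.0214), while CYP704B1 differed by -0.13 without a call. Among those not tested, A9, ACOS5 and CYP703A2 had WT 1 above all nga libraries and WT 2 within the nga range. LAP5 and MS1 had both WT libraries within that range. Of the 3 sepal and petal markers, 2 were tested. PI rose in nga against WT (limma, adjusted p = 0.0241). AP3 differed by -0.39 without a call, and every nga library lay below WT. Of the 7 carpel and ovule markers, SHP2 (0.63) and INO (0.62) rose in nga against WT, while SPT rose (0.59) and SHP2 fell (-0.54) between 35S:NGA and nga. Over all tested genes 9.26% rose and 7.65% fell in nga against WT, and 3.72% rose and 1.62% fell in 35S:NGA against nga. No marker of the 4 lists was called in 35S:NGA against WT (limma), where 0.152% of all tested genes were called. The summed pollen markers were highest in 35S:NGA 3, where the antenna was also high. In nga 2, the other library with a high antenna, they were the lowest of the nga group. The part of the pollen markers in the antenna levels was not tested.

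Promoters of the members differed by class in the short sequences they hold. Windows of 250 bases before to 50 bases after the start were searched on both strands for 8 sequences, and no matches of different sequences overlapped in the members. CCAATC was found in 11 of 20 antenna promoters and 4 of 23 core promoters, against 12.7% of the promoters of 17716 tested genes. CACGTG showed the opposite order, in 4 of 20 antenna and 12 of 23 core promoters, against 8.96% of all, and GATAAG was in 6 of 20 and 14 of 23, against 14.6%. Both called genes, LHCA4 and PSAH2, held CACGTG and GATAAG. AAAATATCT, the evening element of clock-controlled genes, was in 1 antenna promoter, that of LHCA5, against 3.13% of all, and AAAAATCT, a CCA1 binding sequence, was in 4 of 20 antenna and 2 of 23 core promoters, against 8.30%. AACAATCT was in 1 and 1, against 2.2%. CACCTG, bound by the B3 domain of the related RAV1 protein, was in no member, against 3.22% of all, and CACTTG was in 5 antenna and 6 core promoters, against 11.1%. These matches are letters in a window and no evidence of binding.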

How the data were processed

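The deposited files give, for each of 8 libraries, RPKM values computed by the authors per the file headers, with decimal commas. Per the submitters' processing notes FastQC and TAIR10 were used. The aligner and read counter were not given in the sources used here. Libraries were made with TruSeq kits and run on a HiSeq2000, per the labels. Of 33590 entries per file, 6374 without a gene model and 18 entries of 9 repeated loci were left out. Lanes were read from the file headers. Mapped reads were estimated from the steps between low RPKM values. At the estimated numbers 46.7% to 53.4% of the low values used lay near a whole read, so the estimates are approximate. The number of mapped reads sets the precision of low genes.

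One limma model (version 3.58.1, R 4.3.3, eBayes with trend) took log2(RPKM + 1) of the 8 libraries, for genes that reached 1 RPKM in at least 2 of them, with Benjamini-Hochberg adjustment over all 17786 genes in each of 3 comparisons. It was tested on simulated data. There were 20 alternative settings, of which the one without nga 2 and 35S:NGA 3 was added after their antenna levels were seen. Python 3.11.15 with pandas 2.3.3, numpy 2.4.6, biopython 1.88 and matplotlib 3.10.9 made the tables, sequences and figures. Sequences, coordinates and coding sequences are from TAIR10.1 (RefSeq), in which all 60 members were found by locus. Promoters belong to annotated gene starts.

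The members, the 11 lists of other genes (110 genes) and the rule for named genes were chosen with earlier results of these data known. The rule names all antenna genes, the 6 most abundant core genes of each photosystem, called members, the largest difference in each direction, members below the filter, and GLK1, GLK2, CCA1, LHY, GRP7, PRR9 and called genes of the pathway lists. NGA1, NGA2, PSAE-1, PSAD-2, PSAN, PSB27, PSB29, LPA19, the markers given by name and the clock genes beyond CCA1, LHY, GRP7 and PRR9 were added after their values were seen. The replicate numbers of the titles are not stated to mark a shared plant or day and did not pair the libraries.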

Additional observations from a re-analysis of the deposited data

How the results depend on the processing

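The direction of LHCA4 and PSAH2 in nga against WT was kept in all 20 settings tried, and the calls depended on the setting. In this comparison the settings within lane 6, without the lane 8 libraries, with a lane term and without nga 3 share 1 log2 difference per gene. In nga against WT the count of all genes called was 1744 with only the 2 groups compared, 6005 with the lane as a term, 5562 within lane 6, 6031 without the lane 8 libraries, 819 without nga 2 and 35S:NGA 3, and 41 to 5135 with 1 library left out, against 3008. The antenna count was 10 with a lane term, 9 within lane 6, 10 without the lane 8 libraries, 0 with a pseudocount of 5, no filter, quantile normalization, equal library medians, only the 2 groups compared or both of nga 2 and 35S:NGA 3 left out, and 0 to 6 with 1 library left out, against 1. The core count was 4 within lane 6, without the lane 8 libraries or with a lane term, 2 after quantile normalization, 0 without a filter or without nga 2 and 35S:NGA 3, and 0 to 2 with 1 library left out, against 1.

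In 35S:NGA against WT the count of all genes was 81 with a pseudocount of 0.1, 56 at a mean of at least 5 RPKM, 74 after quantile normalization, 344 with only the 2 groups compared, 14 with a lane term, 334 without the lane 8 libraries, 68 without nga 2 and 35S:NGA 3, and 1 to 284 with 1 library left out, against 27. The antenna count was 1 with the lane as a term, against 0. In 35S:NGA against nga the count of all genes was 608 at a mean of at least 5 RPKM, 576 with only the 2 groups compared, 145 with a lane term, 2071 without the lane 8 libraries, 458 without nga 2 and 35S:NGA 3, and 355 to 2517 with 1 library left out, against 949. There the antenna count was 2 without the lane 8 libraries, 1 with a lane term and 0 to 1 with 1 library left out, and the core count 1 with a pseudocount of 0.1, no filter or the lane as a term, and 0 to 1 with 1 library left out. With a lane term the differences of 35S:NGA from WT and from nga rest on 35S:NGA 3 as the only library of its group. The cause of these shifts was not tested.

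Differences that turned round were CAB2 in nga against WT (-0.49 without nga 2, also with 35S:NGA 3 left out, and up to 2.57 with 1 library left out), PSAH2 in 35S:NGA against WT (0.17 with the lane as a term, -0.37 to 0.048 with 1 library left out, the highest without 35S:NGA 1) and LHB1B2 in 35S:NGA against nga (1.22 with the lane as a term, -1.29 to 0.18 with 1 library left out, the highest without nga 2), none of them called. Same-numbered libraries had correlations of -0.26 to 0.367 in their deviations from the group means, so the numbers were not taken to pair the libraries, although both libraries numbered 3 shared lane 8. With the replicate block the antenna count was 1 in nga against WT (LHCB4.3, -1.11, while LHCA4 was at 2.02 with adjusted p = 0.0684 in limma) and 1 in 35S:NGA against nga (LHCB4.3, 0.56), and the core count 1 and 0. Low genes such as LHCA6, LHB1B2 and PSAD-2 are limited by depth.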
